A study of Mus musculus with 3 samples.

Results

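The genes described here encode the proteins of the cytosolic ribosome, measured in J774A.1 cells, an established mouse macrophage-like tumour line. They are the genes whose name on the array begins with Rpl or Rps and continues as the name of a ribosomal protein does, which leaves out the ribosomal S6 kinases. The rule gave 79 genes with 131 probes, of 27720 gene names on the array. No measured value entered the rule. Of the 79 genes, 31 encode core proteins of the small (40S) subunit and 46 core proteins of the large (60S) subunit, and Rps27l and Rpl3l are paralogs of core proteins. In the study, J774A.1 cells spent 6 h in 1 of 3 media before total RNA was taken. The reference was RPMI, a full culture medium, with fetal bovine serum at 10%. The second was Earle's Balanced Salt Solution (EBSS), which has glucose but neither amino acids nor serum. The study's design text can also be read as RPMI with EBSS added, and the names of the media in the sample labels were followed instead. The last added to EBSS the p38 MAP kinase inhibitor SB202190 at 10 µM. The amino acids, the serum and the vitamins of RPMI were lost together, so their parts cannot be told apart, and the sources used here name no vehicle control for SB202190.

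Each medium was treated as 1 sample, read in both dyes across 3 arrays of 2 colours that form a closed ring. The labels do not say whether both channels of a medium came from the same RNA extract. RPMI in Cy5 met EBSS in Cy3 on the first array, EBSS in Cy5 met EBSS with SB202190 in Cy3 on the second, and EBSS with SB202190 in Cy5 met RPMI in Cy3 on the third. For each pair of media there is thus an array that held both, called the direct path, and a second path through the other 2 arrays. The log2 ratios below are least-squares estimates over the ring, in which the direct path has the larger weight. The error beside them is a technical standard error (SE). It was taken from the sum of the 3 ratios around the ring, as its spread about the median sum of genes of like brightness. A departure of the sum from 0 that those genes share is therefore not in the SE. The SE was not made to hold the spread between cultures, and with 1 sample per medium no p-value was computed. To be called higher or lower, a gene needed a log2 ratio of 0.5 or beyond in either direction, with each path on the same side of 0 by 0.25 or more (the 0.5 rule). The stricter rule of 1 asked for 1, and 0.5 on each path.

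The cytosolic ribosome is built from ribosomal RNA and a near-equal supply of about as many core proteins as are listed here, whose genes are among the most strongly transcribed in growing cells. In mammals their mRNAs carry a terminal oligopyrimidine (TOP) tract, an unbroken run of C and T that begins at the first transcribed base. When amino acids or growth factors are withdrawn, mTORC1, the kinase that reads them, is switched off, and TOP mRNAs leave polysomes while many of them stay in the cell bound by Larp1. The control that starvation is known for is therefore one of translation, which an array of total RNA does not see, whereas it does see changes in mRNA level.

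The start-site sequences are shown because TOP tracts lie there. RefSeq (assembly GRCm38.p6) listed a promoter for 58 of the 79 genes. A run of 8 or more pyrimidines touched the 20 bases on either side of the listed start in 28 of the 58 (48.3%), against 20.8% of 27025 genes with a listed promoter. A run of 10 or more was there in 20 (34.5%), against 10.4% of all genes. The longest run near the start had a median of 7 bases in the family and 5 over all genes. Examples follow from 30 bases before the listed start to 20 bases within the transcript, with the longest run in capitals (of equally long runs, the nearer to the start).
Rps6 (chr4:86857348-86857397, minus strand): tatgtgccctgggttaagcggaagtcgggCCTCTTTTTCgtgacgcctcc
Rpl15 (chr14:18270967-18271016, minus strand): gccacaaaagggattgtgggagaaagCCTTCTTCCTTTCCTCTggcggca
Rps18 (chr17:33955646-33955695, minus strand): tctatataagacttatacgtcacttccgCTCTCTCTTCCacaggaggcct
Rpl35 (chr2:39005112-39005161, minus strand): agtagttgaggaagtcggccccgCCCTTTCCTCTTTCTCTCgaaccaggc
Rps27 (chr3:90213629-90213678, minus strand): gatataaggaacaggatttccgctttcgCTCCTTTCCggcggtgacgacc
Rps27l (chr9:66946056-66946105, plus strand): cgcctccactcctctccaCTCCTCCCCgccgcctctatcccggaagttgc
In all but Rps27l the run spans the listed start, as in Rps6, where it covers positions -1 to 9. In the paralog Rps27l the run lies upstream, from -12 to -4, and an equally long run precedes it. A listed start can be some bases off, so a run is a description of these letters and not a proven TOP tract. Within the 300-base promoters, on both strands, CCGGAAG, the core of an ETS-family site, occurred in 23 of 58 (39.7%) against 9.12% of all genes. GCCATNTT, the core of a YY1 site, occurred in 10 (17.2%) against 6.23%, and TATAAA in 5 (8.62%) against 14.2%.

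The RNA carried the markers of macrophages: 9 of 9 (Csf1r, Cd68, Itgam, Ptprc, Emr1, Lyzs, Fcgr1, Cd14 and Mpeg1) were well above background in all 6 channels. Of 10 markers of other cell types, 8 were above background in none. No spot was saturated, and between 40.1% and 49.9% of spots per channel were well above background.

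The ribosomal protein genes were measured in full. Of the 79 genes, 78 were well above background in all 6 channels. The exception was Rpl3l, the form of Rpl3 that striated muscle uses, which was above background in 1 channel, with log2 intensities from 8.61 to 8.70, and has no ratio here. No probe carried the name Rpl10l, and Rpl39l, which like Rpl10l is known from testis, is carried under the older name 4930517K11Rik, where both of its probes were above background in no channel. The family's spots were bright: the median over members of the mean log2 intensity was 16.12, from 11.03 for Rpl21 to 17.33 for Rpl8, and the median over measured genes was 10.55. Brightness also depends on the probe and is no measure of one mRNA against another. At a mean log2 intensity of 15 or more the array held 378 genes, and 68 of them (18.0%) were ribosomal protein genes. The loess curve that removes dye bias is fitted through those same spots.

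EBSS against RPMI asks what 6 h without amino acids and serum did to the mRNA levels. The ribosomal protein genes moved little and nearly in step. Their log2 ratios had a median of -0.12 (0.918-fold), quartiles of -0.17 and -0.052 and an SD over genes of 0.15, with 64 of 78 below 0. Over all 11898 measured genes the median was 0.0026 and the SD 0.54, and 51.8% lay within 0.25 of 0, against 73 of 78 ribosomal protein genes (93.6%). The sign of the family's small shift was not settled: relative to all genes it was -0.13 with loess, 0.079 with the scanner software's own ratios and 0.56 with median centring. By the 0.5 rule no ribosomal protein gene was higher and 1, Rps27l, was lower, where 13.0% of all measured genes were higher and 11.3% lower. By the rule of 1 there were none in either direction, where 4.49% of all genes were higher and 2.83% lower. Only Rps27l and Rpl21 lay more than 2 SE from 0, with a median SE of 0.21 over the family.

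**Figure D1:**
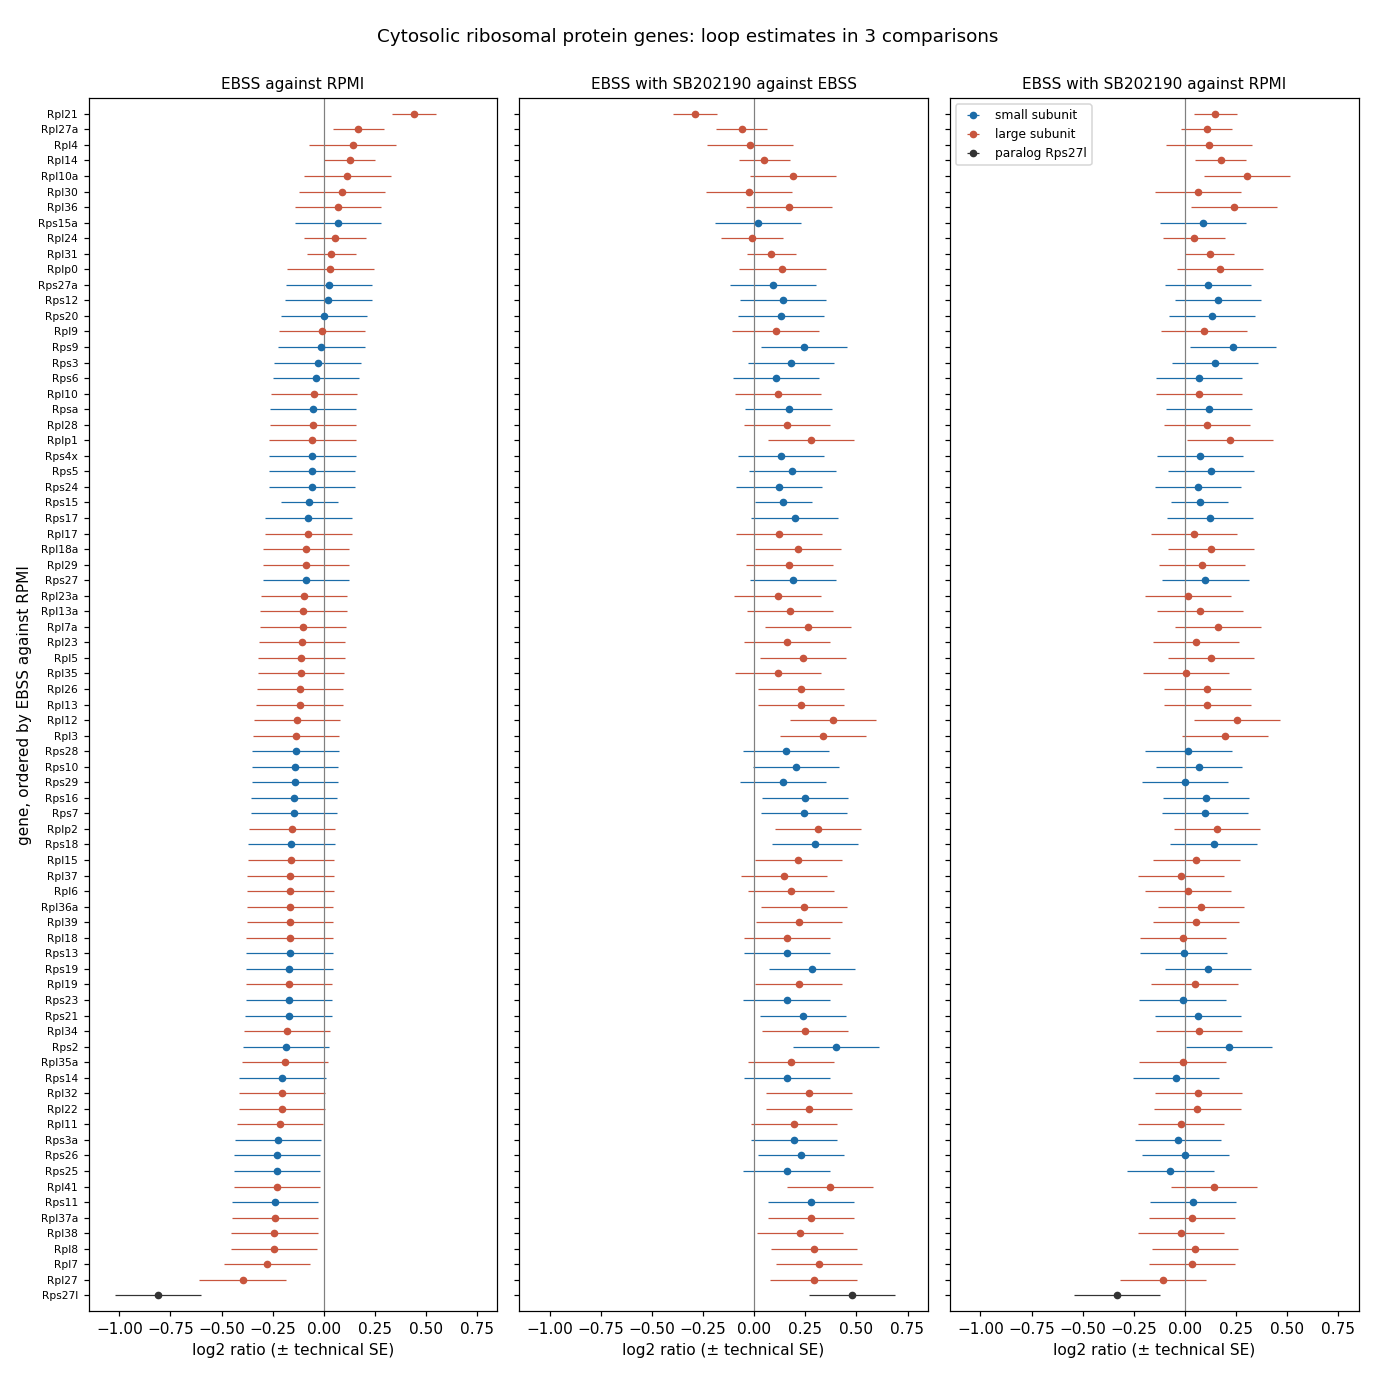
Log2 ratio (x axis) of the measured ribosomal protein genes reported by name here (y axis, in the order of EBSS against RPMI) in the 3 comparisons. Points are estimates over the ring of arrays, bars are ± 1 technical SE, blue marks the small subunit, red the large subunit and black the paralog Rps27l. Most genes form a narrow band near 0 whose side of 0 depends on the normalization, and Rps27l lies at -0.81 in the left panel.

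Both subunits gave nearly the same picture. The 31 small-subunit genes had a median log2 ratio of -0.14 (SD 0.094) and the 46 large-subunit genes one of -0.11 (SD 0.14). The 33 proteins shared with bacteria and archaea had a median of -0.11 and the other 44 core proteins -0.15. Rps6, the small-subunit protein that S6 kinases phosphorylate when mTORC1 is active, had log2 intensities of 15.46 (Cy5) and 15.44 (Cy3) in RPMI, 15.54 and 15.36 in EBSS, and 15.56 and 15.59 with SB202190. Its EBSS values lay on either side of the RPMI values. Rps27a, made as a fusion with ubiquitin, gave 15.10 and 15.02 in RPMI, 15.13 and 15.04 in EBSS, and 15.22 and 15.14 with SB202190, so that all 6 channels lay between 15.02 and 15.22. Rpsa, which sits in the head of the 40S subunit and is also known as the laminin receptor, gave 15.63 and 15.52 in RPMI, 15.59 and 15.60 in EBSS, and 15.62 and 15.78 with SB202190. For Rps6 and Rpsa, too, the RPMI and EBSS values overlapped.

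Rpl5 and Rpl11 carry the 5S ribosomal RNA into the large subunit and, when free, hold back Mdm2, the ligase that removes p53. Rpl5 gave 17.22 (Cy5) and 16.55 (Cy3) in RPMI, 16.88 and 16.62 in EBSS, and 17.17 and 16.62 with SB202190. Rpl11 gave 16.44 and 16.17, 16.32 and 16.02, and 16.36 and 16.31 in the same order. For both genes the Cy5 value was above the Cy3 value in each medium, and the RPMI and EBSS values overlapped. Rplp0, Rplp1 and Rplp2 form the stalk that recruits the translation factors with GTPase activity. Rplp1 gave 16.96 and 16.36 in RPMI, 16.69 and 16.51 in EBSS, and 16.97 and 16.57 with SB202190. Rplp2 gave 17.18 and 16.62, 16.83 and 16.76, and 17.04 and 16.88. Rplp0, averaged over 10 spots, gave 14.80 and 15.02, 14.77 and 15.06, and 14.97 and 15.13, with Cy3 the brighter dye. For the 3 stalk genes the RPMI and EBSS values overlapped, and the ratios of EBSS to RPMI were 0.033 for Rplp0, -0.055 for Rplp1 and -0.16 for Rplp2. The accession of this Rplp0 probe found no RefSeq gene. Of 2 further probes, carried under the older name Arbp and matched to Rplp0, the brighter gave 16.93 and 16.45 in RPMI, 16.90 and 16.40 in EBSS, and 16.95 and 16.73 with SB202190. Its Cy5 value was the higher in each medium, unlike that of the first probe, and its ratio of EBSS to RPMI was -0.13. The other gave -0.044, so the sign for Rplp0 depended on the probe.

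Rps27l stood apart from the family. It is a near copy of Rps27 that is known as a target of p53. Its probe lies at chr9:66746823-66748513 on the mm8 build that the files use. Its log2 intensities were 15.44 (Cy5) and 15.37 (Cy3) in RPMI, 14.81 and 14.59 in EBSS, and 15.07 and 15.26 in EBSS with SB202190. The EBSS values lay below all others, the RPMI values above all others, and no medium overlapped with another. The log2 ratio of EBSS to RPMI was -0.81 ± 0.21 (0.57-fold), with -0.84 on the direct path and -0.75 on the other. Its ratios summed to 0.098 around the ring. Relative to the family's median it was -0.69, and between -0.50 and -1.01 under the scanner ratios, median centring, equal spread and each path alone, whereas its ratio itself turned to 0.60 under median centring, which moved the median of all genes by 0.81. Rps27 gave 16.66 and 16.10 in RPMI, 16.51 and 16.25 in EBSS, and 16.51 and 16.39 with SB202190, and its ratio of EBSS to RPMI was -0.088 ± 0.21.

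The other ends of the range were less well defined. Among the lowest ratios after Rps27l were those of the large-subunit genes Rpl27, Rpl7, Rpl8 and Rpl38. Rpl27 gave 16.69 (Cy5) and 16.49 (Cy3) in RPMI and 16.56 and 16.01 in EBSS, so that the media overlapped across dyes, and its ratio of -0.40 ± 0.21 came from -0.68 on the direct path and 0.18 on the other. Rpl8, near the peptidyl transferase centre, had -0.25, from -0.71 and 0.69. Rpl7 stood at -0.28 and Rpl38 at -0.24. At the other end were Rpl21, Rpl27a (0.17), Rpl4 (0.14), Rpl14 (0.13), Rpl10a (0.12) and Rpl30 (0.088), all of the large subunit. Rpl21, whose brightest probe was dimmer than that of any other measured member, gave 10.78 and 10.91 in RPMI, 11.31 and 11.13 in EBSS, and 11.16 and 10.93 with SB202190. Its EBSS values lay above both RPMI values, with a ratio of 0.44 ± 0.11, which the median over its measured probes brought to 0.23. Its accession could not be matched to a RefSeq gene.

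For most of the family the paths through the ring gave opposite signs. For EBSS against RPMI the median was -0.35 on the direct path and 0.27 on the other, and the signs matched for 13 of 78 genes, against 9083 of 11898 measured genes. Most of the ribosomal protein genes were brighter in Cy5 on arrays 1 and 3, and on array 2 their median was near 0. The median log2 ratio of Cy5 to Cy3 was 0.35, 0.019 and 0.26 on arrays 1, 2 and 3, each of which had a different medium in Cy5. Cy5 was the higher dye on all 3 arrays for 38 of 78 ribosomal protein genes, against 505 of 11898 measured genes. Around the ring the ratios summed to a median of 0.64, above 0 for 68 of 78 genes, with a range of -0.67 to 1.64. The other 310 genes of equal brightness had a median sum of 0.25, and all measured genes one of 0.029. A dye offset that is equal on every array cancels in the estimate over the ring by construction, and one that differs between arrays does not. Whether these offsets were equal was not tested. The family's median ratio was smaller in size than its median ratio of Cy5 to Cy3 on arrays 1 and 3.

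**Figure D2:**
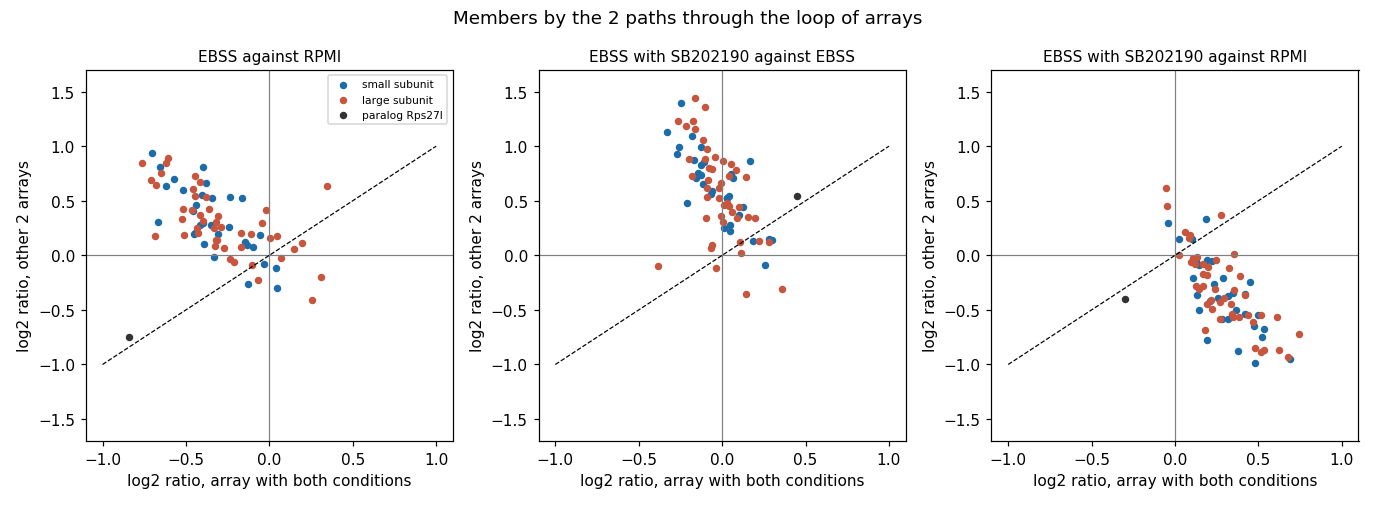
Log2 ratio of each measured ribosomal protein gene on the array that held both media (x axis) against the ratio through the other 2 arrays (y axis), for the 3 comparisons. On the dashed line both paths are equal. Most genes lie in the quadrants of opposite sign, with the same sign for 13 of 78 in the left panel, and Rps27l (black) lies close to the line in each.

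The position on the brightness scale went with the ratio. The 68 ribosomal protein genes of mean log2 intensity 15 or more had a median ratio of EBSS to RPMI of -0.14, and the 310 other genes that bright had -0.18, with a far wider SD (0.60 against 0.13). The 10 dimmer ribosomal protein genes had a median of 0.071. Across the 78 genes, which share the arrays and the loess curves, brightness and ratio had a Spearman rho of -0.52, given as a description, against -0.013 over the other genes. A loess curve fitted with the ribosomal protein probes at weight 0, tried after the data were seen, gave a family median of -0.14.

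**Figure D3:**
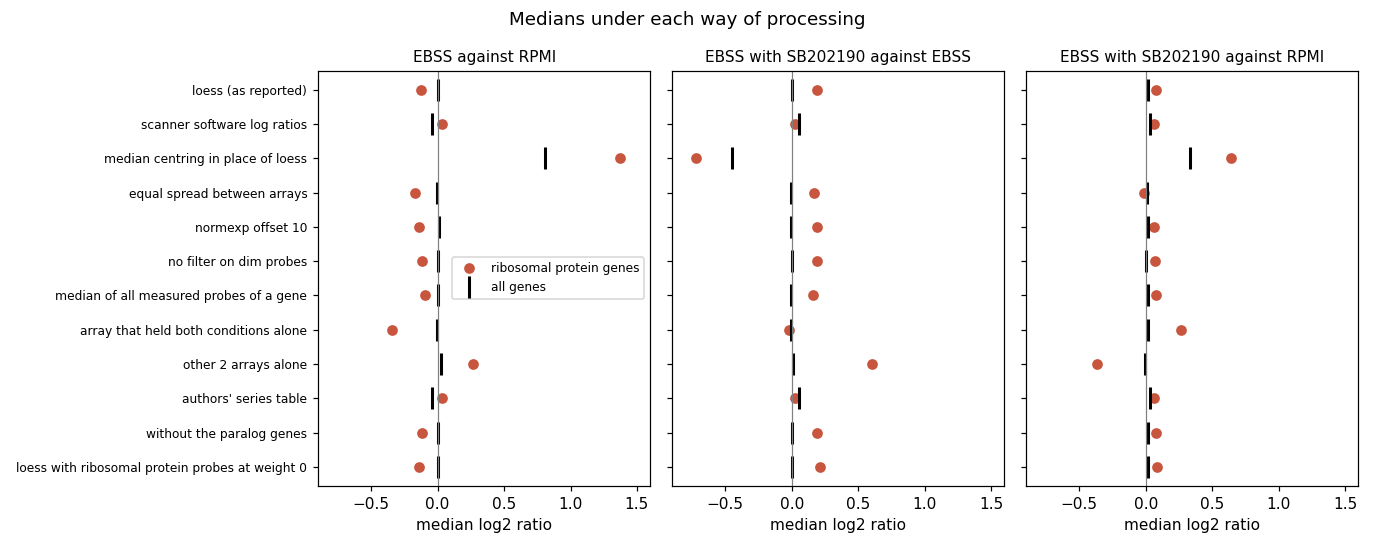
Median log2 ratio (x axis) of the ribosomal protein genes (red) and of all measured genes (black bars) under each way of processing (y axis), for the 3 comparisons. Median centring in place of loess moves both, to 1.37 and 0.81 for EBSS against RPMI, and the distance between them changes sign between loess and the scanner ratios for the first and second comparisons and, for the third, between loess and equal spread.

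EBSS with SB202190 against EBSS asks what p38 inhibition changed in starved cells. It shares the EBSS sample with the comparison above. The ribosomal protein genes again formed a narrow band, with a median log2 ratio of 0.19 (1.14-fold), quartiles of 0.14 and 0.25, an SD of 0.11 and 73 of 78 above 0. Relative to all genes this shift was 0.19 with loess, -0.028 with the scanner ratios and -0.27 with median centring, so its sign was not settled either. By the 0.5 rule no ribosomal protein gene was higher or lower, where 7.09% of all 11714 measured genes were higher and 11.0% lower. By the rule of 1 there were none, where 0.896% were higher and 2.93% lower. The median was -0.019 on the direct path and 0.60 on the other, with the same sign for 35 of 78 genes. The small subunit had a median of 0.18, with all 31 genes above 0, and the large subunit one of 0.19, with 41 of 46 above 0.

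The widest ratio was again that of Rps27l, at 0.48 ± 0.21 (0.45 and 0.55 on the paths), just short of the 0.5 rule. Relative to the family's median Rps27l was at 0.29, with 0.47 on the direct path but -0.059 on the other. Under median centring its ratio turned to -0.38. After Rps27l came Rps2 and Rpl12. Rps2, which lines the path of mRNA into the 40S subunit, gave 16.37 (Cy5) and 16.54 (Cy3) in EBSS and 16.97 and 16.54 with SB202190, so that the media met in Cy3, and had a ratio of 0.40 ± 0.21. Rpl12, at the base of the stalk, gave 16.64 and 16.17 in EBSS and 16.93 and 16.54 with SB202190, and its ratio of 0.39 came from -0.10 on the direct path and 1.36 on the other. Rpl41 (0.37), Rpl3 (0.34) and Rpl7 (0.32) followed. Rpl21 was lowest at -0.29, followed by Rpl27a (-0.062), Rpl30 (-0.025), Rpl4 (-0.022), Rpl24 (-0.010) and Rps15a (0.019). Bright members had a median of 0.20, other genes of equal brightness 0.16 and the 10 dimmer members 0.065, and brightness and ratio had a Spearman rho of 0.54 over the 78 genes.

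EBSS with SB202190 against RPMI, which shares a sample with each of the other comparisons, gave the smallest spread. The median was 0.074 (1.05-fold), with quartiles of 0.037 and 0.13 and an SD of 0.093, and 75 of 78 genes (96.2%) lay within 0.25 of 0, against 60.0% of all 11886 measured genes. The shift relative to all genes was 0.059 with loess, 0.031 with the scanner ratios and 0.30 with median centring, and it was negative when equal spread was set between arrays, at -0.021, where the family's median was -0.012. No ribosomal protein gene was higher or lower by the 0.5 rule, where 7.0% of all genes were higher and 9.23% lower, nor by the rule of 1, where 1.46% were higher and 2.42% lower. The paths had medians of 0.26 and -0.37 and matched in sign for 10 of 78 genes. Both subunits were alike, at 0.076 for the small and 0.072 for the large.

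Rpl10a, a protein of the mobile stalk beside the exit site, was highest in that comparison, at 0.31 ± 0.21, with 0.28 on the direct path and 0.37 on the other. It gave 14.41 (Cy5) and 14.43 (Cy3) in RPMI, 14.62 and 14.56 in EBSS, and 14.71 and 14.85 with SB202190, so that RPMI lay below EBSS and EBSS below EBSS with SB202190 in every channel. Rpl12 (0.26), Rpl36 (0.24), Rps9 (0.23), Rplp1 (0.22) and Rps2 (0.22) followed. Rps27l was lowest at -0.33 ± 0.21, with -0.30 and -0.40 on the paths, and Rpl27 (-0.11), Rps25 (-0.070), Rps14 (-0.042) and Rps3a (-0.033) were also near that end. None of these lay past the 0.5 rule. Relative to the family's median Rps27l was at -0.40, with -0.56 on the direct path but -0.031 on the other. Under median centring its ratio turned to 0.22.

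By the 0.5 rule, none of the remaining measured paralogs and proteins with known side roles was higher or lower in any comparison. Rpl7 and Rpl3 were among the range ends named above. Rpl3, beside the peptidyl transferase centre, gave 16.19 (Cy5) and 15.81 (Cy3) in RPMI, 16.04 and 15.87 in EBSS, and 16.20 and 16.18 with SB202190. Rpl22, which can be replaced by its paralog, gave 16.04 and 15.71, 15.78 and 15.61, and 16.00 and 15.81 in the same order. Rpl39, at the mouth of the exit tunnel, gave 15.42 and 15.51, 15.52 and 15.19, and 15.63 and 15.67. For these 3 genes the RPMI and EBSS values overlapped. Rpl7 gave 16.59 and 16.29, 16.45 and 16.08, and 16.56 and 16.53, and Rpl7a, an unrelated protein despite its name, gave 17.30 and 16.71, 17.15 and 16.84, and 17.23 and 17.07. Rpl10, which joins the 60S subunit late, gave 15.94 and 15.70, 15.75 and 15.77, and 15.90 and 15.74, but the files place its probe at chr13:62394783-62394842 (mm8) and its accession found no RefSeq gene. A second probe, matched to Rpl10 and of mean log2 intensity 15.22, gave ratios of 0.008, 0.08 and 0.088 in the 3 comparisons. The first probe gave -0.047, 0.115 and 0.069. Ribosomal protein genes have many processed copies in the mouse genome, and the signal of a gene and of a near-identical copy cannot be told apart by a probe.

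More than 1 measured probe was there for 35 genes, and in 18 of them the probes were 2 or more apart in log2 intensity. In 15 of those 18 the brighter probe had the lower ratio of EBSS to RPMI. For SB202190 against EBSS this was so in 2, and for EBSS with SB202190 against RPMI in 9. The dimmest probes of these 18 genes went down to a mean log2 intensity of 8.74, near the floor. Member probes above background in no channel lay at 8.52 to 8.61. In the 17 genes whose probes were closer in brightness, the probes differed by a median of 0.068, 0.040 and 0.039 in the 3 comparisons. No gene had probes 1 or more apart, and the widest gap was 0.59. That gap was in Rpl27a for SB202190 against EBSS, an example picked after its values were seen. Its dim probe, of mean log2 intensity 9.31, gave 0.52 for EBSS against RPMI and -0.65 for SB202190 against EBSS. Its brightest, of 12.59, gave 0.17 and -0.062. For EBSS against RPMI the widest gap, 0.58, was in Rps24, between dim probes of mean log2 intensity 9.35 (ratio 0.49) and 8.89 (-0.088). Counted by probe, 1 of 123 was higher and 1 lower in EBSS than in RPMI, and with SB202190 against EBSS 0 were higher and 1 lower.

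**Figure D4:**
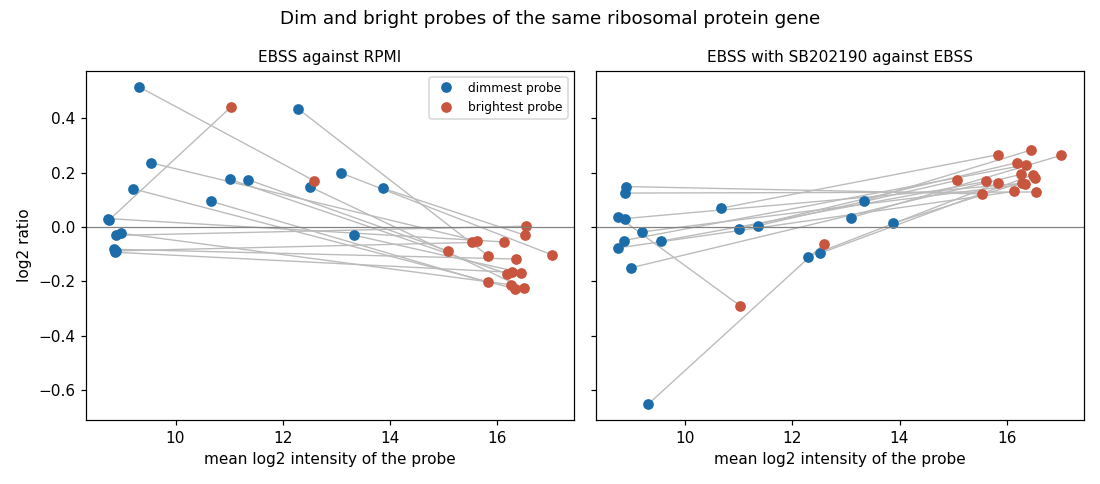
Log2 ratio (y axis) against mean log2 intensity (x axis) of the dimmest (blue) and brightest (red) measured probe of the 18 ribosomal protein genes whose probes lie 2 or more apart in intensity, joined by a line per gene. The brighter probe has the lower ratio in 15 genes for EBSS against RPMI and in 2 for EBSS with SB202190 against EBSS. Some of the dimmest probes, down to 8.74, lie near the background.

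Genes with and without a long run of pyrimidines at the start had similar ratios. For EBSS against RPMI the 28 genes with a run of 8 or more had a median of -0.11 and the 29 measured genes with a shorter run -0.15. With SB202190 against EBSS these were 0.19 and 0.18, and for EBSS with SB202190 against RPMI 0.082 and 0.072.

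The other genes of the pathway were read from lists. The mitochondrial ribosome, which makes the proteins of the respiratory chain encoded in mitochondria, spread more widely than the cytosolic one. Of its 72 measured genes, 28 were lower in EBSS than in RPMI by the 0.5 rule and 2 higher, against 11.3% and 13.0% of all measured genes, with a median of -0.25 and an SD of 0.51, beside 0.54 over all genes. The widest were Mrpl41 (-1.83 ± 0.13), Mrpl51 (-1.48 ± 0.15) and Mrps34 (-1.26 ± 0.15), each with the same sign on both paths, although Mrps34 came to 0.041 under median centring. With SB202190 against EBSS, 15 mitochondrial genes were higher and 2 lower (7.09% and 11.0% of all genes), led by Mrps34 (1.21 ± 0.15), Mrpl41 (0.94 ± 0.13) and Mrpl49 (0.94 ± 0.13). For EBSS with SB202190 against RPMI, 2 were higher and 7 lower (7.0% and 9.23% of all genes), with Mrpl51 (-1.29), Mrpl53 (-0.93) and Mrpl41 (-0.89) at the low end.

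The TOP mRNAs of translation factors lay near the ribosomal protein genes. Of 22 elongation and initiation factors and other TOP mRNAs, none was higher and 1 lower in EBSS than in RPMI (13.0% and 11.3% of all genes), with a median of -0.043. The lower gene was Eif3s6ip (Eif3l, a subunit of initiation factor eIF3), at -0.60 ± 0.21, which came to 0.91 under median centring. Eif4b, a helper of the cap-binding complex's helicase, was at 0.45 ± 0.14, short of the rule, and Hnrpa1 at -0.37 ± 0.21. No gene of the list passed the 0.5 rule in either comparison with SB202190, where the medians were 0.15 against EBSS and 0.12 against RPMI. The widest values against EBSS were those of Eif3s6ip (0.48), Eef1d (0.40) and Eef1g (0.32), and against RPMI those of the elongation factor Eef2 (0.38), Eif3s6 (-0.31) and Nap1l1 (-0.29).

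Genes that control mTORC1 and TOP mRNAs differed more. Of 17 measured, 8 were higher in EBSS than in RPMI and none lower (13.0% and 11.3% of all genes), with a median of 0.32. Sesn2, the leucine sensor of the pathway, was at 2.60 ± 0.14, and Ddit4, an inhibitor of mTORC1 induced by stress, at 1.76 ± 0.13. Cnbp, which binds TOP mRNAs, was at 1.34 ± 0.21, with 1.83 on the direct path and 0.37 on the other. Akt1s1 (PRAS40), Rheb and Tsc1 were at 1.26, 1.03 and 1.02, and Eif4ebp1, the repressor of cap-dependent initiation, at 0.97. Larp1 itself was at -0.16 and Rps6kb1, the S6 kinase gene, at 0.050. With SB202190 against EBSS 5 of the 17 were lower and none higher (11.0% and 7.09% of all genes), led by Ddit4 (-1.23 ± 0.13), Akt1s1 (-1.21 ± 0.11) and Rheb (-0.96 ± 0.15). Against RPMI 5 were higher and 1 lower with SB202190 (7.0% and 9.23% of all genes), led by Sesn2 (1.86), Gbl (Mlst8, a subunit of mTORC1, 1.07) and Tsc1 (0.73), of which Tsc1 came to -0.058 as the median over its probes.

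Among 22 measured assembly factors and chaperones of ribosomal proteins, 1 was higher and 4 lower in EBSS than in RPMI (13.0% and 11.3% of all genes). Sbds, which helps release eIF6 from new 60S subunits, was at 0.91 ± 0.14. Bccip, a chaperone of Rpl23, stood at -0.90 ± 0.15 and Grwd1, a chaperone of Rpl3, at -0.64 ± 0.12, and both were above 0 under median centring, at 0.44 and 0.42. With SB202190 against EBSS 1 was higher and 2 lower (7.09% and 11.0% of all genes), with Sbds at -0.85 ± 0.14, the kinase gene Riok2 at -0.55 ± 0.12 and Pdcd2, a chaperone of Rps2, at 0.53 ± 0.13, which turned to -0.24 under median centring. Against RPMI 1 was higher, Pdcd2 (0.73), and 5 were lower (7.0% and 9.23% of all genes), with Grwd1 at -0.99 and Bxdc1 (Rpf2, which works with the 5S particle) at -0.88.

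**Figure D5:**
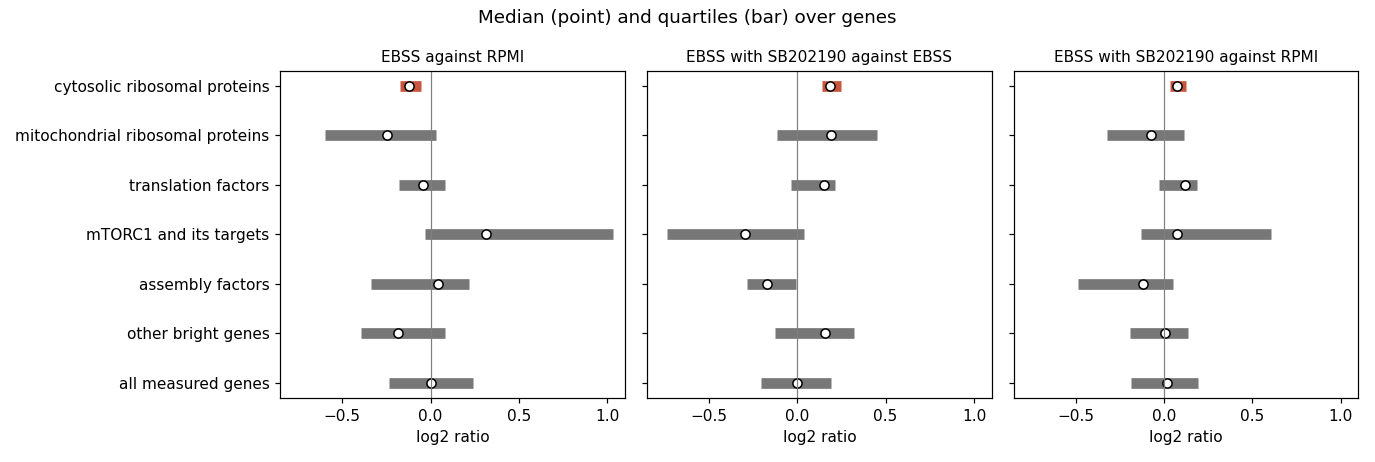
Median (point) and quartiles (bar) of log2 ratios over the genes of each list (y axis) for the 3 comparisons, after loess. The bar of the cytosolic ribosomal protein genes is the narrowest in each panel, with medians of -0.12, 0.19 and 0.074 whose sign relative to all genes changes with the normalization in each.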

How the data were processed

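The submitters' processing notes name Agilent Feature Extraction 9.5.3.1 as the reader of the spots. Per the file headers, the deposited values are raw mean and background intensities in Cy5 and Cy3, a log10 ratio of intensities that the software had processed and dye-normalized, and marks of other kinds (above background, saturated, outlier, control). A deposited table by the authors holds log2 ratios whose medians per array are -0.086, -0.077 and -0.17. Between 99.7% and 99.8% of its values lay within 0.0001 of the log2 ratio of processed signals (Cy5 over Cy3), so its scale is log2, uncentred, Cy5 over Cy3, and between 65.1% and 68.2% lay that close to the scanner's own log10 ratio turned to log2.

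limma 3.58.1 under R 4.3.3 corrected the background of the mean intensities (normexp, offset 50) and normalized within arrays by loess, control spots having weight 0. Controls (1639 of 45018) and outliers (136 to 178 per array) were then left out. Channel levels were taken after scaling between arrays by Aquantile. The scripts (Python 3.11.15, numpy 2.4.6, pandas 2.3.3) were tested on simulated data. A gene counted as measured if its probe was well above background wherever 1 of the compared media was read, and its brightest probe stood for it, with 30 brightness bins for the SE. Accessions matched 111 of 131 member probes to RefSeq, 109 under the same symbol. The number of arrays, 3, limits precision.

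Members, lists and rules were chosen with earlier results of these data known. Named were the 6 highest and 6 lowest members per comparison, the stalk, 5S, Rps6, Rps27a, Rpsa, Rpl22 and paralog genes, members above background nowhere, 3 genes per companion list and comparison, and macrophage markers. A gene that this rule names, and a marker, are not reported here by name. Further examples were picked with their values known. Alternatives were 10 planned and 1 added after seeing the data.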

Additional observations from a re-analysis of the deposited data

How the results depend on the processing

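No paired analysis was possible because each medium is 1 sample. For the 3 comparisons in the order used above, median centring in place of loess gave family medians of 1.37, -0.72 and 0.64 and, for EBSS against RPMI, 57 genes past the 0.5 rule, all higher, in place of 1. Of all measured genes 24.3%, 18.1% and 16.2% passed this rule with loess, 40.0%, 35.8% and 28.6% with the scanner ratios and 60.0% (first comparison) and 5.5% (last) with median centring. The direct path alone gave a median of -0.35 and 17 genes for EBSS against RPMI, where 25.9% of all genes passed. For EBSS with SB202190 against RPMI it gave 10 genes in place of 0, where 18.7% of all genes passed. The other 2 arrays alone gave medians of 0.27, 0.60 and -0.37 and 24, 47 and 29 genes. Of all genes 27.9%, 24.0% and 19.6% passed there. By construction a path alone keeps the dye offset that the ring removes. Equal spread between arrays, and loess without the ribosomal protein probes, each gave 1 gene for SB202190 against EBSS in place of 0. Of all genes 24.3% and 18.2% passed under these settings. Leaving out the paralogs gave 0 genes for EBSS against RPMI. Under the scanner ratios, the authors' table, offset 10, no filter on dim probes and the median over probes, each family median moved by less than the members' median technical SE and each count of genes stayed as it was, but the scanner ratios and the authors' table turned the median for EBSS against RPMI to 0.034, and both median centring and equal spread turned the sign of a median. Under median centring the log2 ratios of EBSS to RPMI turned to 0.60 for Rps27l, 0.44 for Bccip, 0.62 for Bxdc1, 0.91 for Eif3s6ip, 0.42 for Grwd1, 0.26 for Mrpl49 and 0.041 for Mrps34, that of Pdcd2 for SB202190 against EBSS to -0.24, and over all probes Tsc1 came to -0.058 for EBSS with SB202190 against RPMI. For Rps27l median centring also turned the ratio for SB202190 against EBSS to -0.38 and that for EBSS with SB202190 against RPMI to 0.22. The cause was not tested. Signal over background limited only Rpl3l among the members, since the other 78 were well above background in all 6 channels.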
